A study of Mus musculus with 9 samples.

Results

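The genes described here are 8 genes of Schwann cells and myelin, Mbp, Pmp22, Prx, Mag, Cnp, Ncmap, Sox10 and Egr2, chosen by their symbols among 24421 gene symbols. All 8 were found in each count table, and all 8 passed the filter on low counts that left 14054 tested genes. The list was drawn up with earlier results of these data known, so every value and test of these genes below is a description and supports no statement about the list. The samples came from male mice of 8 weeks with laser-induced choroidal neovascularization (CNV), a model in which a burn breaks the Bruch membrane under the retina and vessels grow in from the choroid. Each eye had received 4 burns and an intravitreal injection of 5 µg of Fc (the control, an antibody constant fragment), ABTAA (an antibody to angiopoietin 2 that also switches on Tie2, a receptor of endothelial cells) or VEGF Trap (a decoy receptor that captures VEGF). The strain, the time after the burn and the animal behind each library are not stated in the labels. The column headings of the Fc counts speak of knockout controls, so every comparison with Fc rests on the sample titles. The complex of retinal pigment epithelium (RPE) and choroid was collected with a laser microdissector, and 3 libraries per group were sequenced from the 3′ ends of transcripts.

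Schwann cells are the glia of peripheral nerves. In myelinating Schwann cells the plasma membrane is wrapped around an axon and compacted into myelin, while other Schwann cells ensheathe small axons without myelin. The choroid is densely supplied by nerves, and the transcription factors Sox10 and Egr2 (Krox20) are known to switch on the myelin genes of peripheral nerve. Sox10 is also a factor of melanocytes, which share a neural crest origin with Schwann cells and are frequent in the choroid, and Egr2 is induced in macrophages as well.

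Total counts ran from 6335805 to 14439835 per library, where a floor of 3 counts stands for 0.209 to 0.469 CPM (the counts scaled to library totals of equal size, with the TMM method), which covers counting error only. All 8 RPE genes examined passed the filter, with Rpe65, the visual cycle isomerase, at a mean of 206 CPM over the 9 libraries. Best1 was near the floor, with 0 to 15 counts per library and a mean of 0.636 CPM. The summed level of 14 skeletal muscle genes was 121 to 181 CPM in Fc, 248 to 517 in ABTAA and 240 to 423 in VEGF Trap, and that of 11 melanocyte genes was 2388 to 2703, 3153 to 3241 and 2559 to 4392. Of the melanocyte genes Dct, chosen after its values were seen, alone had a mean of 2257 CPM over the 9 libraries. The tables hold bulk RNA, in which fewer cells of a type and less RNA per cell cannot be told apart. Since the animals are not named, p-values measure no more than the spread between these libraries, part of which may be technical.

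The genes lie on 6 chromosomes of mm10 (GRCm38), in the GENCODE M21 annotation. Ncmap is on chromosome 4 from 135369576 to 135398227, Egr2 on chromosome 10 from 67535475 to 67542188, Pmp22 on chromosome 11 from 63128982 to 63159547 and Cnp on chromosome 11 from 100574904 to 100591729. Prx is on chromosome 7 from 27499324 to 27520214, Mag on chromosome 7 from 30899176 to 30914873 and Sox10 on chromosome 15 from 79154908 to 79165240. Exons of Prx overlap the gene Gm15541, and exons of Cnp the gene Dnajc7, each on the opposite strand. The strand setting of the counting is not given in the sources used here, so reads of such overlapping genes may not have been told apart. A search of the last 200 bases of every transcript of the 8 genes found 0 near copies elsewhere in the transcript set, at 95% identity over 100 bases.

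Ncmap, a small membrane protein of non-compact myelin in peripheral nerve, showed the widest separation between groups among the 8 genes. Because it is the gene on which the results turn, the RefSeq sequences (GRCm38.p6) from 250 bases before to 50 bases after its 2 annotated starts are shown, 5′ to 3′ on the minus strand. The capitals mark matches to GTGGGNG, a G-rich motif of the EGR family of factors to which Egr2 belongs. The upper window is chr4:135398178-135398477 and the lower one chr4:135385623-135385922.
Ncmap upstream start: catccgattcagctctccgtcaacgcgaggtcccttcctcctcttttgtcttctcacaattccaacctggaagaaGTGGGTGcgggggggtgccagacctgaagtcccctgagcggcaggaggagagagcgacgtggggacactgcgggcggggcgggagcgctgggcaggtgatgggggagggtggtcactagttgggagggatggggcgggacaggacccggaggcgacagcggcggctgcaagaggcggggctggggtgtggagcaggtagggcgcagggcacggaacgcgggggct
Ncmap downstream start: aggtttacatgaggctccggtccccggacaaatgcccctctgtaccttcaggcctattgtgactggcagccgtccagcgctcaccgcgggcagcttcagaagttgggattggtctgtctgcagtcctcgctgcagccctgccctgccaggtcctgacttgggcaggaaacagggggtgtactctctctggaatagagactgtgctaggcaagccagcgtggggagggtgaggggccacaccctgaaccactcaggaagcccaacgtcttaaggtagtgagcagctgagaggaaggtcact
The upstream window held 1 match, at bases 76 to 82, and the downstream window held 0. On either strand, GTGGGNG occurred in 31.6% of 32851 promoter windows of this length, so its presence is common. The SOX motifs ACAAAG (18.7% of windows) and ACAATG (12.6%) were searched on both strands as well and matched neither Ncmap window, which says only that those letters are not in these windows. Of 16 windows available for 6 of the 8 genes, 7 held GTGGGNG, 3 held ACAAAG and 0 held ACAATG. Some windows of the same gene overlap, as for Mag and Egr2, so a site can be counted more than once. None of these motifs overlaps another in the printed windows.

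Ncmap stood at 7.84, 14.8 and 7.32 CPM in Fc 1, 2 and 3, at 17.3, 22.0 and 17.8 CPM in ABTAA 1, 2 and 3, and at 6.96, 8.77 and 9.14 CPM in VEGF Trap 1, 2 and 3. All 3 ABTAA libraries were above all 6 others, and the VEGF Trap libraries overlapped Fc, with VEGF Trap 1 below the lowest Fc library. The means were 9.97 ± 4.15, 19.0 ± 2.56 and 8.29 ± 1.17 CPM for Fc, ABTAA and VEGF Trap (SD, n = 3 per group). The log2 fold change was 0.94 ± 0.25 (SE) for ABTAA over Fc (adjusted p = 0.0706, edgeR quasi-likelihood test with Benjamini-Hochberg adjustment over all tested genes), which does not pass the threshold of 0.05. It was 1.21 ± 0.26 for ABTAA over VEGF Trap, with an unadjusted p of 0.000253 and an adjusted p of 0.851 by edgeR. That unadjusted p was the smallest of all 14054 tested genes in this comparison, and no gene passed. For VEGF Trap over Fc it was -0.27 ± 0.26 (adjusted p = 0.665, edgeR), with a 95% interval of -0.82 to 0.28.

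The library Fc 2 held the highest Ncmap level among the controls. Without it, the ABTAA over Fc difference was 1.33 ± 0.23 and passed (adjusted p = 0.0486, edgeR), and the value for VEGF Trap over Fc turned to 0.12. Without Fc 1 or Fc 3 the ABTAA over Fc difference was 0.79 and 0.74. The skeletal muscle total was higher than in Fc in both treated groups, whereas Ncmap was above Fc in the ABTAA libraries alone, and the part of muscle in the Ncmap level was not tested.

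**Figure D1:**
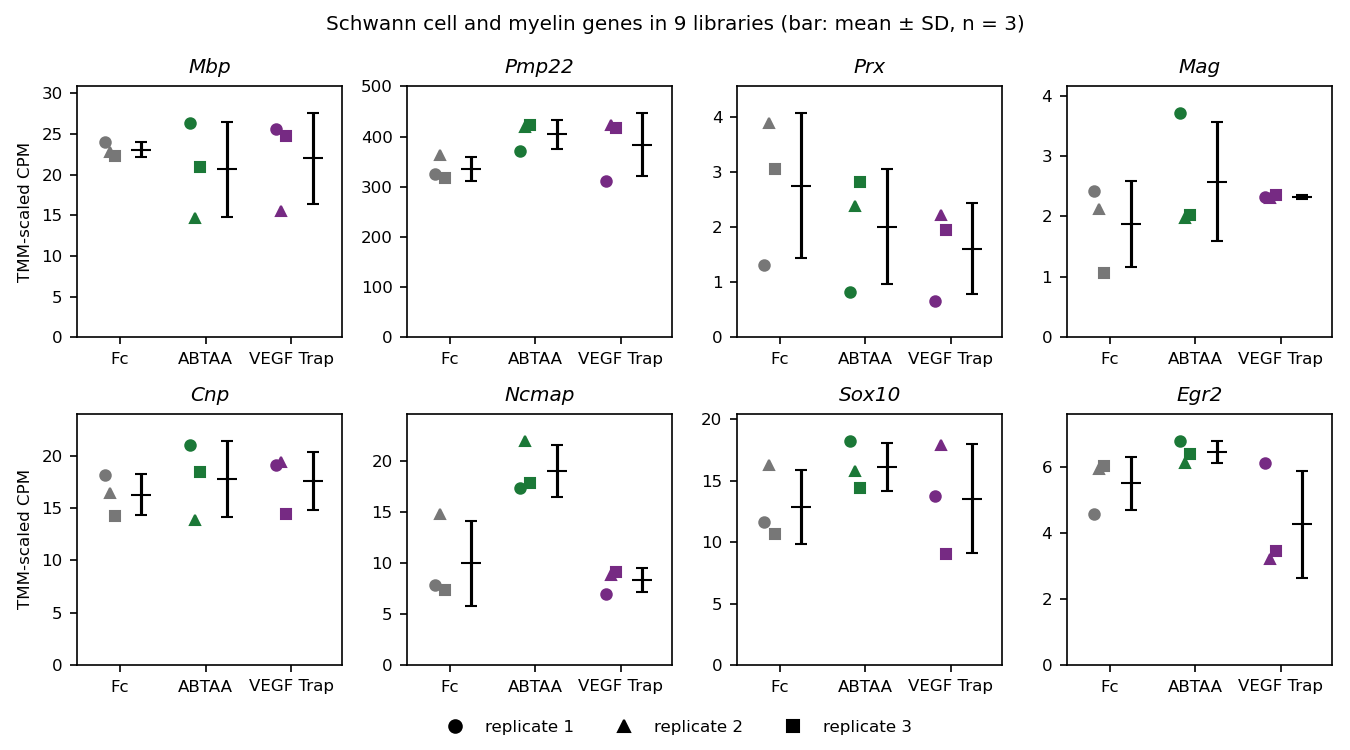
Level of each of the 8 genes in TMM-scaled CPM (y axis, from 0) in the 9 libraries, by reagent (x axis), with the group mean and SD beside the points. For Ncmap the 3 ABTAA libraries lie between 17.3 and 22.0 CPM, above the 6 others, whereas for Mbp, Mag, Prx, Cnp and Sox10 the 3 groups overlap.

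The counting of Ncmap limits how far this difference can be read. Its counts were 84, 174 and 96 in Fc, 168, 222 and 114 in ABTAA, and 84, 126 and 66 in VEGF Trap, and all 9 are multiples of 6. The RefSeq table lists 6 curated transcripts of Ncmap. The counts of Prx and Cnp were all even, and each of these genes has 2 curated transcripts, while the other 5 genes shared no divisor above 1, with 1 curated transcript for Sox10, 6 for Egr2, 7 for Pmp22 and 8 each for Mag and Mbp. Over all tested genes, every count was even for 33.2% of 2996 genes with 2 curated transcripts and for 1.27% of 6612 genes with 1. Every count was a multiple of 6 for 5.45% of 202 genes with 6 curated transcripts and for 0 genes with 1.

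Divided by 6, the Ncmap counts were 14, 29 and 16 in Fc, 28, 37 and 19 in ABTAA, and 14, 21 and 11 in VEGF Trap. An exact Poisson 95% interval is then 18.6 to 40.5 for ABTAA 1, 7.65 to 23.5 for Fc 1 and 13.0 to 32.1 for VEGF Trap 2, for counting error only. With every gene divided by its common divisor, the Ncmap log2 fold change of 0.93 for ABTAA over Fc had an SE of 0.44 and an adjusted p of 0.279 by edgeR. That of 1.20 for ABTAA over VEGF Trap had an SE of 0.45, an unadjusted p of 0.0151 and an adjusted p of 0.911.

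**Figure D2:**
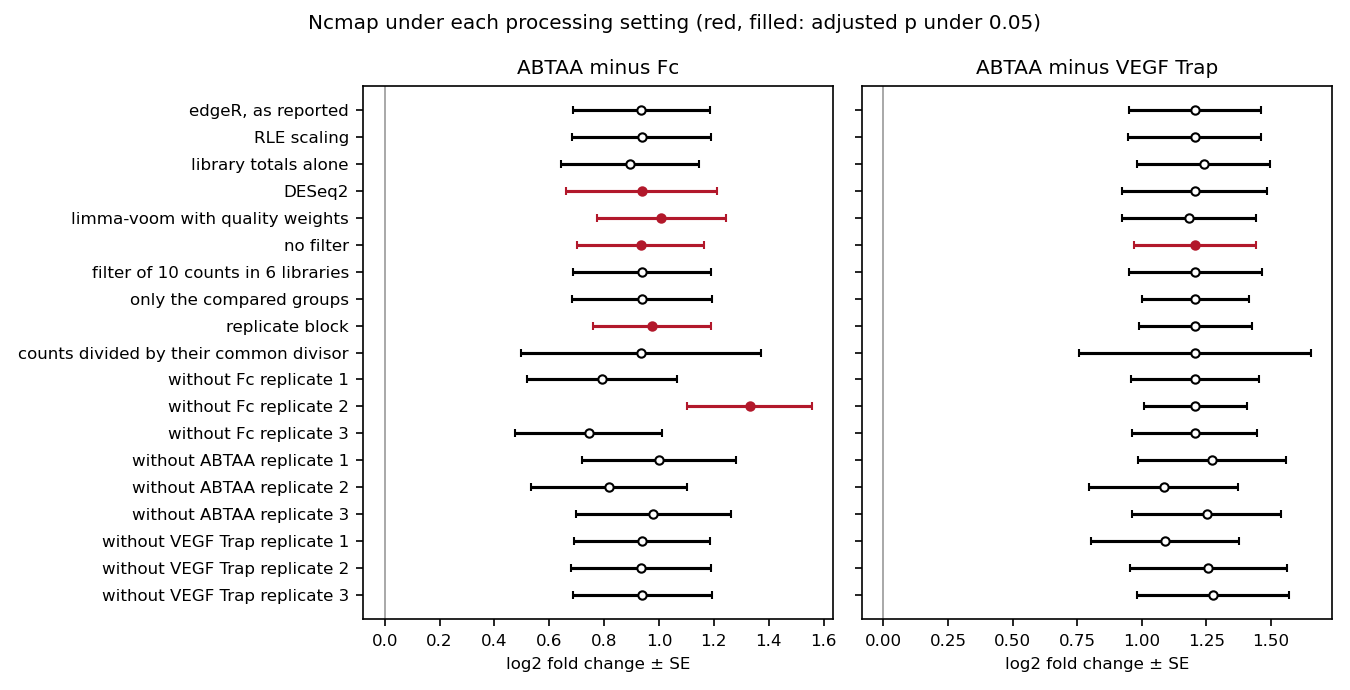
Log2 fold change of Ncmap (x axis, point and SE) under each processing setting (y axis), for ABTAA over Fc (left) and ABTAA over VEGF Trap (right). The value stayed above 0 in every setting shown and passed the threshold in 5 of 18 alternatives on the left and 1 on the right, and the bar is widest where counts were divided by their common divisor.

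Of the transcription factors, Egr2 showed the same order of groups as Ncmap with a smaller difference. It stood at 4.57, 5.93 and 6.03 CPM in Fc 1, 2 and 3, at 6.81, 6.14 and 6.41 CPM in ABTAA 1, 2 and 3, and at 6.13, 3.20 and 3.46 CPM in VEGF Trap 1, 2 and 3. The ABTAA libraries lay above all others, although the lowest of them, at 6.14 CPM, and the highest VEGF Trap library, at 6.13 CPM, were almost level. The log2 fold change was 0.22 ± 0.29 for ABTAA over Fc (adjusted p = 0.761, edgeR), -0.36 ± 0.29 for VEGF Trap over Fc (adjusted p = 0.602) and 0.59 ± 0.30 for ABTAA over VEGF Trap (adjusted p = 0.962). Without VEGF Trap 1 the last 2 values were -0.73 and 0.95. The Egr2 counts were 25 to 79 per library.

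Sox10 stood at 11.7, 16.3 and 10.7 CPM in Fc 1, 2 and 3, at 18.3, 15.8 and 14.4 CPM in ABTAA, and at 13.7, 17.9 and 9.00 CPM in VEGF Trap. The groups overlapped, and the spread within VEGF Trap covered most of the range. The log2 fold change was 0.33 ± 0.24 for ABTAA over Fc (95% interval -0.18 to 0.84, adjusted p = 0.524, edgeR) and 0.09 ± 0.24 for VEGF Trap over Fc (adjusted p = 0.903). Of 11 melanocyte genes, 2 rose in ABTAA over Fc and 3 in VEGF Trap over Fc by edgeR, where 1.4% and 1.02% of all tested genes passed. An unadjusted p under 0.05 was found for 8 and 5 of the 11, beside 16.9% and 15.4% of all genes. DESeq2 called 4 higher in each comparison. Ednrb, an endothelin receptor of melanocytes and other neural crest cells, was called by edgeR in both comparisons. It rose from 127 ± 9.15 CPM in Fc to 215 ± 12.5 in ABTAA (log2 0.76 ± 0.11, adjusted p = 0.00872, edgeR) and 186 ± 19.9 in VEGF Trap (0.55 ± 0.11, adjusted p = 0.0377). Pmel was called in both as well, with log2 fold changes of 0.95 ± 0.13 (adjusted p = 0.00872, edgeR) and 0.67 ± 0.13 (adjusted p = 0.0322). The edgeR melanocyte calls in ABTAA numbered 0 without ABTAA 2, and those in VEGF Trap numbered 0 without any 1 Fc or VEGF Trap library. Dct, the largest part of the melanocyte sum, did not pass (adjusted p = 0.538 and 0.236, edgeR). How much of the Sox10 level came from melanocytes was not tested. The part of the RPE, of endothelial cells or of other cells in the levels of the melanocyte list, Ednrb among them, was not tested either.

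Pmp22, a protein of compact peripheral myelin that many other cells express too, was the most counted of the 8 genes, with 2702 to 6090 counts per library. It stood at 326, 364 and 317 CPM in Fc 1, 2 and 3, at 372, 419 and 422 CPM in ABTAA, and at 311, 424 and 417 CPM in VEGF Trap. The ABTAA libraries were all above Fc, and VEGF Trap 1 lay below every other library. The log2 fold change was 0.27 ± 0.12 for ABTAA over Fc (unadjusted p = 0.0464, adjusted p = 0.288, edgeR) and 0.19 ± 0.12 for VEGF Trap over Fc (adjusted p = 0.495), or 0.33 without VEGF Trap 1. ABTAA and VEGF Trap differed by 0.08 ± 0.12, with a 95% interval of -0.19 to 0.34.

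The other myelin proteins gave no separation of the groups. Mbp, the basic protein that holds the inner faces of the myelin membrane together, stood at 24.1, 22.8 and 22.3 CPM in Fc 1, 2 and 3, at 26.3, 14.7 and 20.9 CPM in ABTAA, and at 25.7, 15.6 and 24.8 CPM in VEGF Trap. Its gene is on chromosome 18 from 82475146 to 82585637. The libraries ABTAA 2 and VEGF Trap 2 were low, and the other 7 lay between 20.9 and 26.3 CPM. The log2 fold change was -0.16 ± 0.22 for ABTAA over Fc and -0.07 ± 0.21 for VEGF Trap over Fc, with 95% intervals of -0.62 to 0.30 and -0.53 to 0.38, and the first was -0.39 without ABTAA 1. The Mbp gene also gives rise to Golli transcripts outside myelin, which a count per gene does not separate.

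Cnp, an enzyme of the cytoplasmic channels of myelin, stood at 18.1, 16.4 and 14.2 CPM in Fc, at 21.0, 13.9 and 18.4 CPM in ABTAA, and at 19.0, 19.4 and 14.4 CPM in VEGF Trap. Its log2 fold changes over Fc were 0.13 ± 0.19 for both reagents, and ABTAA and VEGF Trap differed by 0.00 ± 0.19, with a 95% interval of -0.40 to 0.41. Mag, a lectin of the myelin membrane next to the axon, had only 13 to 36 counts per library. It stood at 2.43, 2.12 and 1.07 CPM in Fc, at 3.71, 1.98 and 2.03 CPM in ABTAA, and at 2.32, 2.30 and 2.35 CPM in VEGF Trap. The log2 fold change of Mag for ABTAA over Fc was 0.48 ± 0.45, and its 95% interval of -0.49 to 1.44 holds both 0 and the size seen for Ncmap, so a difference of that size was neither shown nor excluded.

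Prx, the scaffold protein periaxin of myelinating Schwann cells, had 8 to 46 counts. It stood at 1.31, 3.90 and 3.05 CPM in Fc 1, 2 and 3, at 0.825, 2.38 and 2.81 CPM in ABTAA, and at 0.663, 2.23 and 1.94 CPM in VEGF Trap. Within each group the library numbered 1 was the lowest, and the highest library exceeded the lowest by 5.89-fold over all 9. The Prx log2 fold change was -0.48 ± 0.58 for ABTAA over Fc and -0.78 ± 0.57 for VEGF Trap over Fc (adjusted p = 0.735 and 0.562, edgeR), both within that spread.

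**Figure D3:**
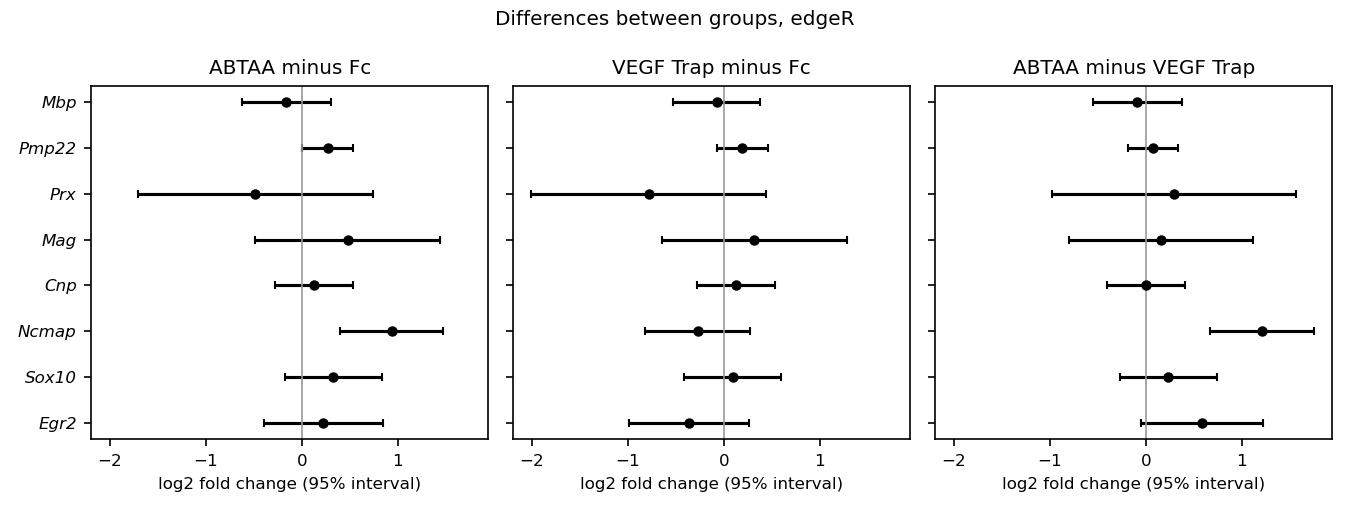
Log2 fold change with its 95% interval (x axis) for each of the 8 genes (y axis) in the 3 comparisons. The intervals of Ncmap lie above 0 in both comparisons of ABTAA and that of Pmp22 just above 0 for ABTAA over Fc, before adjustment for 14054 genes, and Prx and Mag have the widest intervals.

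Set side by side, 0 of the 8 genes passed for ABTAA over Fc by edgeR, where 1.4% of all tested genes did, and 2 had an unadjusted p under 0.05, as did 16.9% of all genes. DESeq2 and limma-voom each called 1 of the 8, Ncmap. For VEGF Trap over Fc, 0 of the 8 passed by edgeR, DESeq2 or limma-voom, where 1.02% of all genes did by edgeR, and 0 had an unadjusted p under 0.05, against 15.4%. For ABTAA over VEGF Trap, 0 of the 8 and 0% of all genes passed by edgeR, 1 of the 8 and 5.06% of all genes had an unadjusted p under 0.05, and DESeq2 called 0 of the 8 and 1 gene in all. By overlap alone, 3 of the 8, Pmp22, Ncmap and Egr2, had ABTAA libraries all above Fc, as did 11.7% of all tested genes. For VEGF Trap and Fc, 0 of the 8 were free of overlap, against 20.9% of all genes, and 2 of the 8, Ncmap and Egr2, had ABTAA libraries all above VEGF Trap, against 5.14%. The median log2 fold change of the 8 was 0.25 for ABTAA over Fc, 0.01 for VEGF Trap over Fc and 0.20 for ABTAA over VEGF Trap, beside medians of -0.0029, 0.0010 and -0.0033 over all tested genes. The comparisons share libraries, so these values are not independent.

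Across libraries the 8 genes did not follow 1 common pattern. Likeness was measured as the root mean square difference between the log2 CPM of 2 genes, each taken relative to its own mean over the 9 libraries. Among the 8 genes, Cnp and Sox10 were closest (0.27 on the log2 scale), followed by Pmp22 and Cnp (0.28), and Prx and Mag were farthest apart (1.02). The median tested gene with at least 10 CPM stood 0.29 from Cnp and 0.27 from Pmp22, so neither pair was much closer than that. Counting error adds to this distance, most for genes of few counts such as Prx and Mag. Among 8474 tested genes with a mean of at least 10 CPM, the genes nearest to Ncmap were Etv4 (0.30), Mcrs1 (0.35) and Als2cl (0.37), where the median gene stood at 0.63. Nearest to Pmp22 were Zcchc24 (0.046), Cyb5r3 (0.053) and Itm2c (0.058), with a median of 0.27, and nearest to Sox10 were Gzmm (0.16), Treml1 (0.16) and Arhgef15 (0.17), with a median of 0.38. Fam76a, Tle3 and Ccdc3 lay nearest to Cnp (0.085 to 0.091), Icam1, Parp4 and Rasgef1a to Mag (0.12 to 0.18), and Trappc6b, Ly6c1 and Chmp7 to Egr2 (0.17 to 0.22). The nearest to Mbp were 9930021J03Rik, Mrpl19 and Gm4070 (0.12 to 0.13) and to Prx were Cdk1, Spc24 and Slc25a14 (0.37 to 0.40). All of these genes share the same 9 libraries and their depths.

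**Figure D4:**
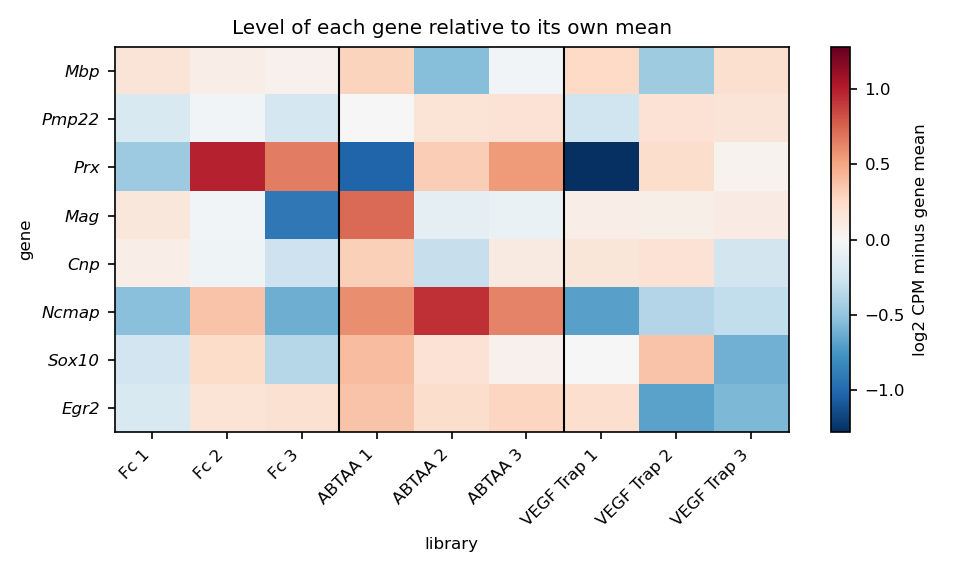
Log2 CPM of each of the 8 genes relative to its own mean (color) in each library (columns). The Ncmap row is high in the 3 ABTAA libraries and in Fc 2, the Mbp row is low in ABTAA 2 and VEGF Trap 2, and the Prx row is low in the first library of each group.

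A wider list of 24 genes of Schwann cells and peripheral myelin was examined, of which 20 passed the filter. For ABTAA over Fc, 2 of the 20 rose, 0 fell and 18 did not pass by edgeR, where 1.4% of all tested genes passed. An unadjusted p under 0.05 was found for 7 of the 20 and for 16.9% of all genes. Of the 20 values, 18 were above 0 with a median log2 fold change of 0.36, where 49.6% of all tested genes were above 0. DESeq2 called 3 higher and 1 lower. The edgeR count was 0 without any 1 of the Fc libraries, without ABTAA 1 or without ABTAA 2, it was 1 without ABTAA 3 or VEGF Trap 2, and 3 without VEGF Trap 1. For VEGF Trap over Fc, 0 of the 20 passed by edgeR, beside 1.02% of all genes, and 7 had an unadjusted p under 0.05, beside 15.4%. Of the 20 values, 17 were above 0 with a median of 0.40, where 50.1% of all genes were above 0, and DESeq2 called 2 genes higher. For ABTAA over VEGF Trap 0 passed by edgeR or DESeq2, and 0 had an unadjusted p under 0.05, against 5.06% of all genes. In that comparison 11 values were above 0 and the median was 0.05. The same shares of all genes stand beside the counts of the lists that follow. The summed level of the list was 697 to 864 CPM in Fc, 934 to 1045 in ABTAA and 843 to 991 in VEGF Trap, so that the ABTAA libraries lay above all Fc libraries and VEGF Trap overlapped Fc. The largest part of that sum was S100b, which did not pass, with means of 405, 512 and 462 CPM in Fc, ABTAA and VEGF Trap.

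Of the 2 that rose, Lgi4, a protein secreted by Schwann cells that is needed for peripheral myelination, stood at 15.9, 15.6 and 15.03 CPM in Fc 1, 2 and 3, at 33.7, 25.9 and 24.7 CPM in ABTAA, and at 28.1, 23.0 and 19.5 CPM in VEGF Trap. Both treated groups lay entirely above Fc. Its log2 fold change was 0.86 ± 0.17 for ABTAA over Fc (adjusted p = 0.0320, edgeR) and 0.61 ± 0.17 for VEGF Trap over Fc (adjusted p = 0.0893), and 0.25 ± 0.17 between the reagents (adjusted p = 0.963). The call for ABTAA ended without Fc 1 (adjusted p = 0.0701), Fc 2 (0.130), Fc 3 (0.0915), ABTAA 1 (0.0937) or ABTAA 2 (0.0962), with values from 0.71 to 0.94 without single libraries.

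Fxyd3, a regulator of the sodium pump that epithelia express too, rose from 10.3 ± 0.689 CPM in Fc to 18.9 ± 4.26 in ABTAA (log2 0.88 ± 0.21, adjusted p = 0.0483, edgeR), and stood at 16.2 ± 3.42 in VEGF Trap (0.66 ± 0.20, adjusted p = 0.121). This call ended without any 1 of the Fc or ABTAA libraries (adjusted p of 0.0563 to 0.165) and without VEGF Trap 2 (0.0630). It also ended when library totals alone were used for scaling (0.0504). The Fxyd3 counts were 116, 125 and 125 in Fc, 231, 165 and 106 in ABTAA, and 238, 231 and 93 in VEGF Trap. Those of Lgi4, in the same order, were 170, 184 and 197, then 327, 261 and 158, then 339, 331 and 141. Lgi4 thus stood above Fxyd3 in similar proportion in every library. Whether these genes overlap or share reads was not tested, so their rises were not shown to be separate.

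The 3 genes of the wider list with the highest mean CPM, S100b, Mpzl1 and Cd9, did not pass. S100b, a calcium-binding protein of glia and melanocytes, stood at 405 ± 82.8 CPM in Fc, 512 ± 40.8 in ABTAA and 462 ± 61.3 in VEGF Trap. The log2 fold changes of Mpzl1 were 0.27 and 0.30 for ABTAA and VEGF Trap over Fc, and those of Cd9 were -0.42 and -0.37. Further genes were chosen after their values were seen. Nab2, a corepressor that binds Egr2, stood at 56.1 ± 2.43 CPM in Fc, 77.5 ± 7.59 in ABTAA and 76.8 ± 1.56 in VEGF Trap, with log2 fold changes of 0.47 ± 0.12 (adjusted p = 0.0611, edgeR) and 0.45 ± 0.12 (adjusted p = 0.0689). Pou3f1 (Oct6), a factor of Schwann cells at the onset of myelination, stood at 0.653 to 0.848 CPM in Fc, 1.78 to 3.13 in ABTAA and 1.32 to 2.63 in VEGF Trap, on 7 to 31 counts per library (adjusted p = 0.113 and 0.153). The groups of Nab2 and of Pou3f1 did not overlap with Fc in either treatment, and neither gene passed. Of all tested genes, 11.7% had ABTAA libraries all above Fc, and 20.9% had no overlap of VEGF Trap and Fc in either direction. The Nab2 counts were all even, as were those of Prx and Cnp, so its SE may be too small.

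**Figure D5:**
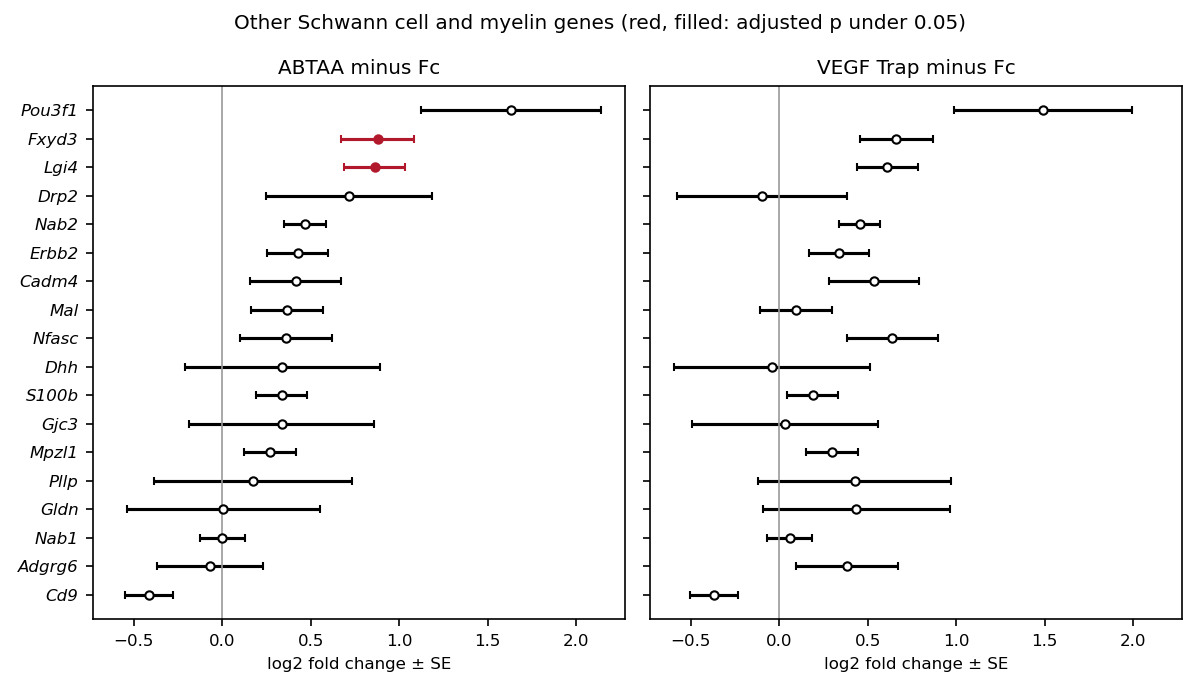
Log2 fold change with SE (x axis) of 18 of the 20 tested genes of the wider Schwann cell and myelin list (y axis), for ABTAA over Fc (left) and VEGF Trap over Fc (right). Lgi4 and Fxyd3 passed the threshold on the left and 0 genes did on the right, and 16 and 15 of the 18 points lie above 0.

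Myelin in the central nervous system is made by oligodendrocytes, and the optic nerve carries it behind the eye. Of 11 oligodendrocyte genes, the factor Olig2 and the myelin genes Mobp and Opalin had 0 counts in all 9 libraries, which allows up to 0.209 to 0.469 CPM, and Mog had at most 1 count in a library. The 5 that passed the filter were led by Ermn (mean of 67.4 CPM), Nkx6-2 (58.2) and Cldn11 (29.9). The summed level of the list was 141 to 159 CPM in Fc, 150 to 173 in ABTAA and 165 to 194 in VEGF Trap, so that VEGF Trap lay above Fc. From Fc to VEGF Trap the means went from 61.1 to 78.9 CPM for Ermn, 53.1 to 59.7 for Nkx6-2 and 26.0 to 32.0 for Cldn11. Olig2, Mobp and Opalin added 0 to the sum. By edgeR and by DESeq2 0 of the 5 passed in any comparison, and 1, 1 and 2 had an unadjusted p under 0.05 for ABTAA over Fc, VEGF Trap over Fc and ABTAA over VEGF Trap. The part of the level of shared myelin genes such as Mbp, Mag and Cnp that came from oligodendrocytes was not tested.

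Genes of other Schwann cell states did not pass by edgeR or DESeq2. Of 13 tested genes of non-myelinating and repair Schwann cells, 7 were above 0 for ABTAA over Fc (median log2 fold change 0.09) and 9 for VEGF Trap over Fc (median 0.14), and 2 and 0 had an unadjusted p under 0.05. Ngfr, the low-affinity neurotrophin receptor of such cells, had 11 to 60 counts per library and log2 fold changes of -0.01 and 0.75. Jun, a factor of the repair state, had log2 fold changes of -0.15 and 0.02. Both were chosen after their values were seen.

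Genes of the axons that Schwann cells ensheathe differed widely in level. Of 12 axon and neuron genes, 7 passed the filter, led by Tubb3, a neuronal tubulin (mean of 30.2 CPM), Uchl1 (28.5) and Stmn2 (13.3), whereas the neurofilament Nefl had at most 4 counts in a library. All 4 were chosen after their values were seen. The summed axon level was 71.3 to 79.7 CPM in Fc, 79.6 to 85.3 in ABTAA and 81.4 to 106 in VEGF Trap. By edgeR and DESeq2 0 of the 7 passed, and 1 had an unadjusted p under 0.05 for ABTAA over Fc and 0 for VEGF Trap over Fc. Of 9 tested genes of myelin lipid synthesis, 0 passed by edgeR, 4 had an unadjusted p under 0.05 in each comparison with Fc, and DESeq2 called 0 for ABTAA and 1 higher and 1 lower for VEGF Trap. Their median log2 fold changes were 0.14 and -0.08. Of 10 nerve sheath genes, 0 passed by edgeR, 3 and 1 had an unadjusted p under 0.05, and DESeq2 called 0 for ABTAA and 1 higher for VEGF Trap, with medians of -0.02 and 0.09.

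Markers of other cells in the dissected tissue moved as follows beside these genes. By edgeR, 8 of 14 skeletal muscle genes rose in ABTAA over Fc and 3 in VEGF Trap over Fc, with medians of 1.38 and 1.03, and 5 of 10 endothelial genes rose in ABTAA (median 0.39) and 0 in VEGF Trap (median 0.07), where 3 had an unadjusted p under 0.05 and DESeq2 called 3 higher. Without Fc 2 or without ABTAA 2, the muscle and endothelial counts for ABTAA were both 0, and without Fc 3 they were 3 and 1. Without Fc 1 or ABTAA 3 the muscle count was 5, and without ABTAA 1 or ABTAA 3 the endothelial count was 3. The muscle count for VEGF Trap was 7 with DESeq2 and 0 with library totals alone. It dropped to 1 when VEGF Trap 1 or Fc 3 was left out, and to 0 when either of the other VEGF Trap libraries, either of the other Fc libraries or ABTAA 3 was. Of 8 macrophage genes, 1 fell in ABTAA (C1qb), which was lost without any single library other than VEGF Trap 1, and 0 passed in VEGF Trap, where 2 had an unadjusted p under 0.05 and DESeq2 called 0. Of 8 RPE genes, 0 passed by edgeR or DESeq2 in either comparison, with 0 and 1 at an unadjusted p under 0.05, and the same counts held for 9 photoreceptor and inner retina genes. The part of these cells in the levels of Egr2 and Pmp22 was not tested.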

How the data were processed

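Per the labels' protocols, 500 ng of total RNA from laser-microdissected RPE and choroid was made into LEXOGEN QuantSeq libraries, which read 3′ ends. The authors deposited raw counts, 1 table of gene symbols per library. The submitters' processing notes name Bowtie2, edgeR and mm10; the sources used here give no version, annotation or counting setting. In the Fc tables the column headings speak of knockout controls, but groups follow the titles.

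The counts were filtered with filterByExpr (minimum count of 10), TMM-scaled, and compared in R 4.3.3 by the quasi-likelihood test of edgeR 4.0.16 (all 9 libraries, 6 residual degrees of freedom), with Benjamini-Hochberg adjustment over 14054 genes per contrast and a threshold of 0.05. The script was tested on simulated data. SEs were derived from the log2 fold change and its F statistic, intervals are at 95%, and log2 CPM for likeness used a prior count of 2. Alternatives used DESeq2 1.42.0, limma 3.58.1 (voom), other scalings and filters, a replicate block, division by common divisors and omission of single libraries. Annotation came from GENCODE M21 and RefSeq (GRCm38.p6), where 13385 of the 14054 tested symbols matched RefSeq, and near copies were searched with BLAST 2.17.0.

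The 8 genes and the 12 further lists were chosen with earlier results of these data known. Named from the lists were genes past the threshold, up to 6 a list, or else the 3 with the highest mean CPM in the Schwann cell, oligodendrocyte and melanocyte lists. For likeness, the 3 nearest genes with at least 10 CPM were named. Muscle and endothelial genes that this rule also names, and called melanocyte genes other than Ednrb and Pmel, are given as counts. Their part in the levels of the 8 genes was not tested. For 2 genes of the wider Schwann cell list, values are not reported here, though the counts and sums of the list include them.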

Additional observations from a re-analysis of the deposited data

How the results depend on the processing

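Under 18 alternatives for each of the 8 genes in 3 comparisons, 416 of 432 log2 fold changes kept their sign, and no called value changed sign. Of the 432, 417 stayed uncalled and moved by less than 1 SE, 9 stayed uncalled and moved by 1 SE or more, and 6 were called. Of the 8 genes, edgeR called 0 for ABTAA over Fc, and 1, Ncmap, was called with DESeq2 (1), limma-voom (1), no filter (1) or the replicate block (1), and 0 to 1 without single libraries. DESeq2 gave no adjusted p for 3 of the 8. For ABTAA over VEGF Trap the count rose to 1 with no filter, and was 0 without any single library; for VEGF Trap over Fc it was 0 throughout. The Ncmap adjusted p ranged from 0.00769 to 0.279 for ABTAA over Fc and from 0.00212 to 0.9996 for ABTAA over VEGF Trap. The cause of these shifts was not tested.

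Same-numbered libraries correlated at 0.013 to 0.112 after removal of group means. Differently numbered libraries were not compared, so whether the numbers pair samples was not settled. With the replicate block the Ncmap difference was 0.97 (adjusted p = 0.0350, edgeR), and the calls over all genes were 334, 300 and 1 in place of 197, 144 and 0 for ABTAA over Fc, VEGF Trap over Fc and ABTAA over VEGF Trap.

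Calls over all genes for ABTAA over Fc were 750 with DESeq2, 411 with limma-voom, 684 with no filter, 301 with the compared groups only, and 0 to 373 without single libraries. For VEGF Trap over Fc they were 221 with library totals, 671 with DESeq2, 242 with limma-voom, 616 with no filter, 249 with divided counts, and 7 to 144 without single libraries. For ABTAA over VEGF Trap they were 1 with DESeq2 and 30 with no filter. As deposited, Prx and Mag had the fewest counts of the 8 genes, at 8 to 46 and 13 to 36 per library. Divided by the common divisor, the counts were 4 to 23 for Prx and 11 to 37 for Ncmap. Ncmap is then limited by depth much as Mag is.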

Other observations

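Of the 14054 tested genes, 15.6% had counts in the 9 libraries that shared a divisor above 1, among them 22 genes whose largest shared divisor was 6, as for Ncmap. For genes with 3 curated RefSeq transcripts, every count was a multiple of 3 in 18.0% of 1432, against 0.121% of 6612 genes with 1 transcript.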
